A study of Mus musculus with 16 samples.

Results

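The genes described here encode the nuclear subunits of the 5 enzyme complexes of oxidative phosphorylation, measured in the apex of the mouse heart. Members were chosen by symbol: those starting with Ndufa, Ndufb, Ndufc, Ndufs or Ndufv and Sdha to Sdhd for complexes I and II, those starting with Uqcr and Cyc1 for complex III, those starting with Cox4i, Cox5, Cox6, Cox7 or Cox8 for complex IV, and those starting with Atp5 for complex V. Genes whose symbol starts with Ndufaf, which encode assembly factors, and pseudogenes were left out. The RefSeq table holds 92 such symbols, 85 of them had a named probe, and 84 of the 13725 genes tested were members: 38 of complex I, 4 of complex II, 9 of complex III, 16 of complex IV and 17 of complex V. Cox8c had a probe but was not above background in all arrays of any group, and Cox5b, Cox6c2, Ndufa11b, Ndufb1, Ndufb4b, Ndufb4c and Ndufs6b had no probe named to them in the files used here. Some members carry older names in the files, such as Atp5a1 for the alpha subunit of ATP synthase and Atp5g1 to Atp5g3 for its c subunit.

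The study used C57Bl/6 males aged 3 months in 4 groups of 4 mice, with 1 Agilent single-colour array per heart. All mice, controls included, were heterozygous for MHC-mercremer, a tamoxifen-inducible Cre recombinase driven in cardiac myocytes by the alpha myosin heavy chain promoter, and all received 500 µg of OH-tamoxifen per day for 5 days. Hearts were taken 21 days after induction, and the word untreated in the sample titles refers to the lack of any further intervention. Control mice carried no floxed allele, AKT1 KO mice were homozygous for floxed Akt1 (exons 6 and 7), AKT2 KO mice for floxed Akt2 (exons 5 and 6), and double knockout (DKO) mice for both. Akt1 and Akt2 encode protein kinases of the insulin signalling pathway. Deletion was confined by design to cardiac myocytes, while the RNA came from the whole apex with all its cell types.

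Oxidative phosphorylation makes most of the ATP that the beating heart uses. Complex I takes electrons from NADH and complex II from succinate, complex III passes them from ubiquinol to cytochrome c, complex IV reduces oxygen, and complex V, the ATP synthase, uses the resulting proton gradient. Nuclear genes for these subunits are known to be served by shared regulators, among them the nuclear respiratory factors NRF1 and GABP, YY1 and the estrogen-related receptors with their PGC-1 coactivators, and several complex IV subunits exist as a heart and muscle isoform and an isoform of other tissues.

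A level below is the log2 signal of a gene's probe minus the log2 of the 75th percentile of its array, so levels compare arrays for one probe and not one probe with another. A gene was called when the adjusted p of limma, Benjamini-Hochberg over all genes tested, was under 0.05, and a change is given with the standard error (SE) of the limma fit. Between 43.1% and 54.0% of the probes of an array were well above background, and no spot of a member was saturated. AKT1 KO replicate 1 stood apart, with a median of all genes that was 0.14 below the control mean on the log2 scale. DKO replicate 3 stood apart too: the median distance of its levels from the mean of the other 3 mice of the group was 0.376 on the log2 scale, against 0.174 to 0.18 for those 3 and 0.0811 to 0.0861 for control hearts. Without it 72 members were called in DKO against control hearts, a count given without the share of all genes called in that fit. Akt2 levels of 4.92, 4.90, 4.83 and 4.98 in control hearts compared with 2.64, 2.43, 2.50 and 2.58 in AKT2 KO and 2.83, 2.82, 3.04 and 2.92 in DKO hearts, so that both groups lay wholly below controls. For Akt1 the levels were 5.14, 5.17, 5.09 and 5.14 in controls and 4.86, 5.43, 5.26 and 5.36 in AKT1 KO hearts, and whether its probe lies in the deleted exons is not known here, so that this check of the AKT1 labels says nothing. The arrays lay on 2 slides, each with 2 mice of every group, but each group always had its own column on a slide, and the column and the group cannot be told apart.

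In DKO hearts the subunit transcripts of all 5 complexes were lower together. Of the 84 members, 73 were called lower than in controls and 0 higher by limma, where 21.2% of all genes tested were called lower and 24.4% higher. For 73 members, all 4 DKO values lay below all 4 control values, as did those of 20.6% of all genes tested. The median log2 change over the members was -0.55, against 0.02 over all genes. Within slide 1 alone 71 members were called and within slide 2 alone 26, at medians of -0.59 and -0.51 and with 2 mice per group. The shares of all genes called within a slide are not given here or below, so the slide counts cannot be set against them. The median over members of the level minus its control mean was -0.50, -0.61, -0.63 and -0.41 in the 4 DKO hearts, -0.34, -0.068, 0.054 and -0.063 in AKT1 KO, -0.051, -0.21, -0.13 and -0.027 in AKT2 KO and 0.088, -0.042, -0.083 and 0.030 in control hearts. The lowest of the 12 other hearts, AKT1 KO replicate 1, lay above the highest DKO heart. In bulk tissue fewer cells of a type and less RNA per cell cannot be told apart.

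**Figure D1:**
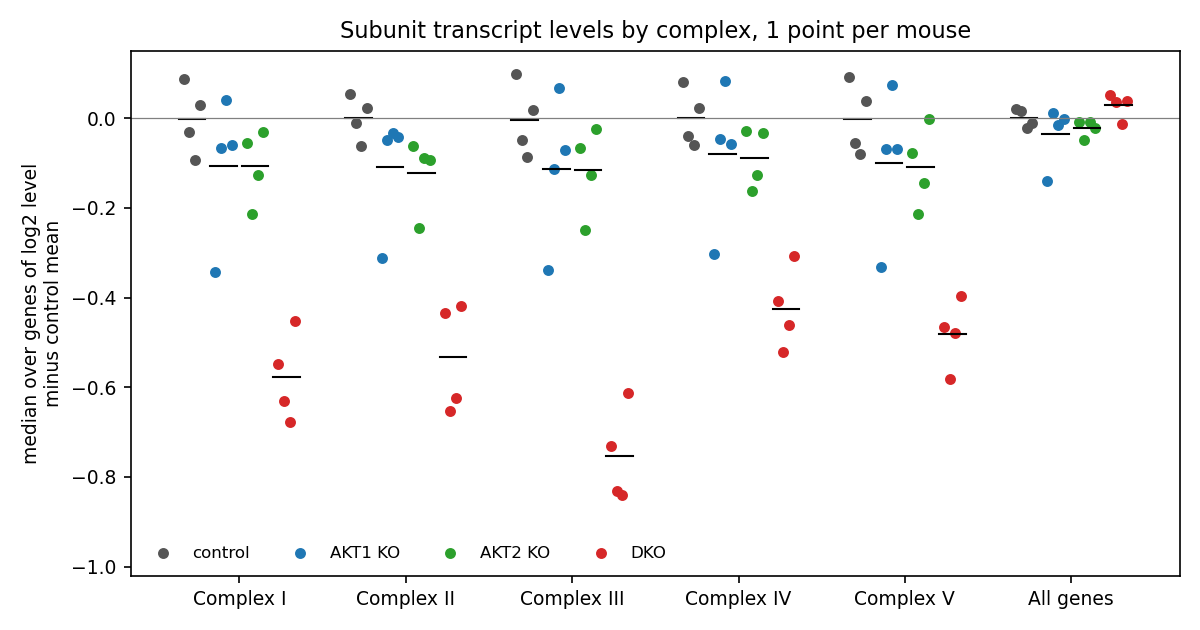
Median over the subunits of each complex, and over all genes tested, of the log2 level minus the gene's control mean (vertical axis), with 1 point per mouse, 4 mice per group, and a bar at the group mean. All 4 DKO points lie below the points of the other groups in each of the 5 complexes and not for all genes, and the lowest AKT1 KO point in each complex is replicate 1.

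Markers of some cell types moved in the same comparison, where 21.2% of all genes tested were called lower and 24.4% higher. Of 10 cardiomyocyte markers, 9 were called lower in DKO than in control hearts, with a median change of -0.46, and Ryr2, Tnni3, Mb and Pln fell by 0.91, 0.65, 0.70 and 0.80. The mean level of the 10 was 8.17 to 8.31 in control hearts and 7.66 to 7.88 in DKO hearts. Of 10 fibroblast markers, 9 were called higher, with a median change of 0.71, and their mean level was 2.17 to 2.27 in control and 2.99 to 3.44 in DKO hearts. Among macrophage and myeloid markers 7 of 12 were called higher, and no marker of neutrophils (3 tested), lymphocytes (5) or erythroid cells (3) was called. Endothelial markers had 1 of 10 called higher and 1 lower, smooth muscle and pericyte markers 3 of 9 higher and 2 lower (6 higher without DKO replicate 3), atrial markers 2 of 4 higher, and adipocyte markers 2 of 3 higher and 1 lower. The atrial calls were Nppa and Nr2f2, while Myl7 and Myl4 were not called. Of 7 adipocyte markers listed only 3 were tested. The 2 called higher, Cfd and Cidec, were dim, with mean control levels of -3.38 and -5.23. The part of these shifts in the subunit changes was not tested.

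**Figure D2:**
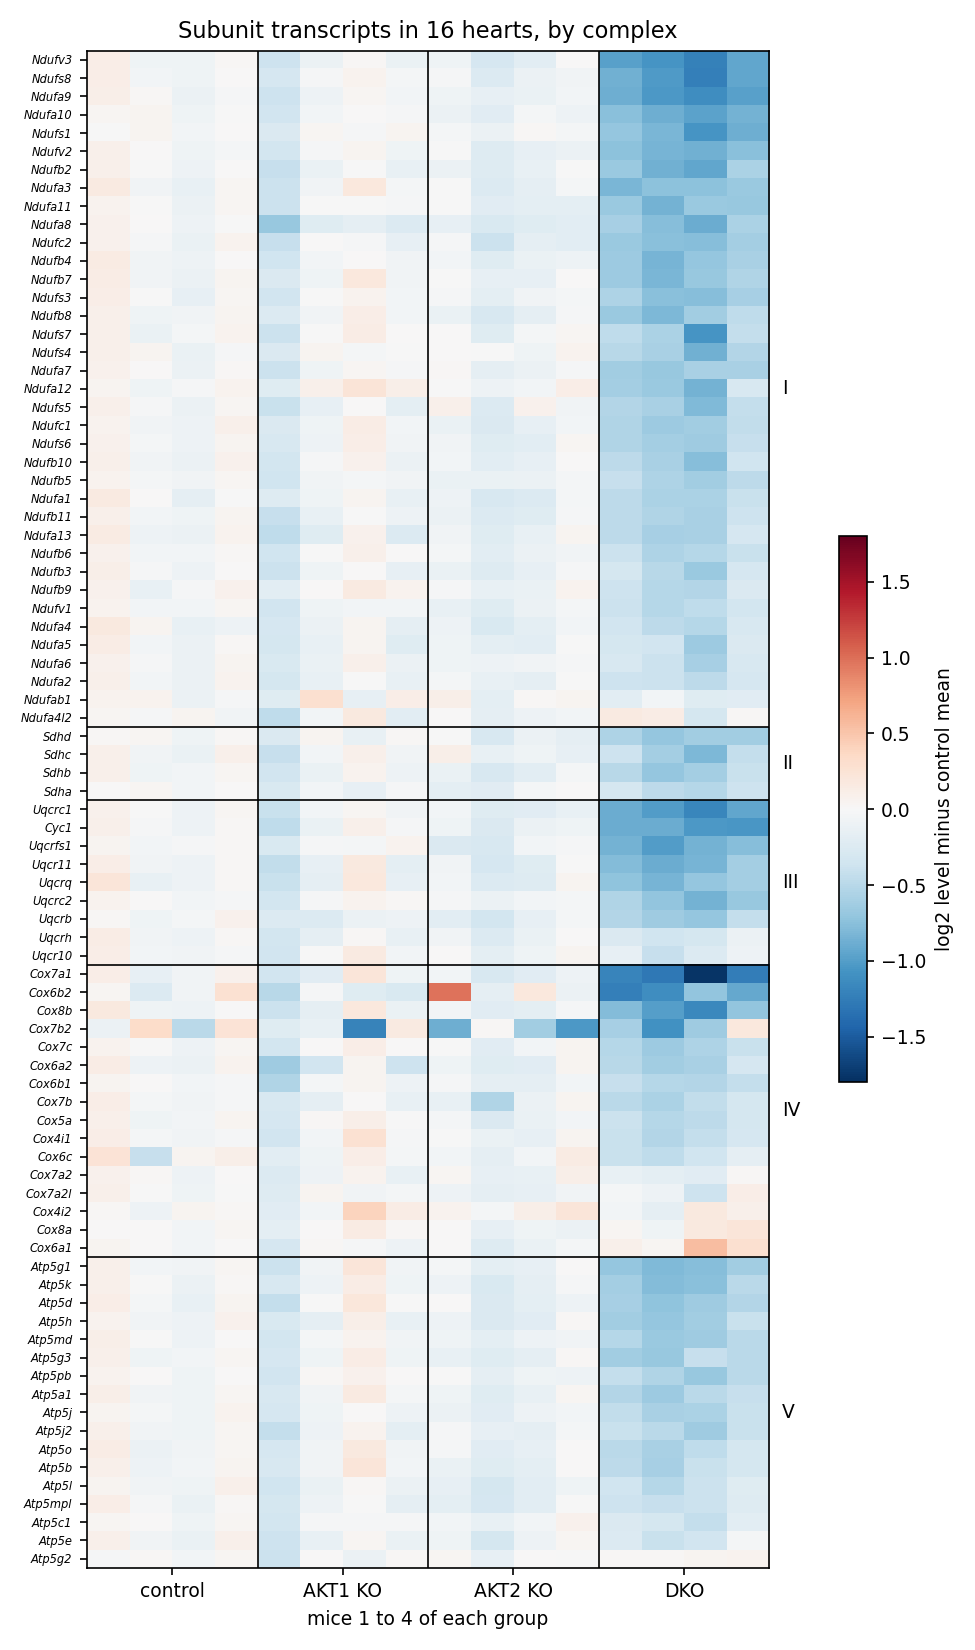
Log2 level of 83 subunits minus its control mean (colour, from -1.8 in blue to 1.8 in red) in 16 hearts, in blocks of complexes I to V sorted by the change in DKO hearts. The 4 DKO columns are blue in nearly all rows, and the rows that are not stand mainly at the foot of the complex IV block.

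Complex I had 36 of 38 members called lower in DKO hearts and a median change of -0.61. Its core subunits carry the redox centres and the quinone-binding parts shared with bacterial enzymes, and its accessory subunits surround them. Ndufs8, a core subunit with iron-sulfur clusters, had levels of 7.47, 7.30, 7.26 and 7.35 in control and 6.48, 6.32, 6.11 and 6.41 in DKO hearts and fell by 1.01 (SE 0.098, limma adjusted p = 1.82e-06). In AKT1 KO hearts its levels were 7.04, 7.32, 7.41 and 7.30, and in AKT2 KO hearts 7.32, 7.09, 7.24 and 7.28. Every DKO heart lay below every other heart for this gene.

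Further core subunits of complex I fell by 0.86 (Ndufs1, the largest iron-sulfur subunit), 0.80 (Ndufv2), 0.67 (Ndufs3), 0.63 (Ndufs7) and 0.42 (Ndufv1, which binds NADH and FMN). The accessory subunit with the largest change was Ndufv3, at 8.40, 8.20, 8.20 and 8.30 in control and 7.30, 7.21, 7.07 and 7.34 in DKO hearts, a fall of 1.05 (SE 0.098, limma adjusted p = 1.49e-06). Ndufa9, an accessory subunit near the quinone site, had levels of 6.47, 6.38, 6.26 and 6.34 in control and 5.49, 5.33, 5.24 and 5.38 in DKO hearts and fell by 1.002 (SE 0.087). Of the core subunits named here Ndufv1 thus had the smallest fall. The remaining called accessory subunits fell by 0.38 to 0.86, the latter for Ndufa10.

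2 members of complex I were not called. Ndufab1, the mitochondrial acyl carrier protein, which also serves lipoic acid synthesis, changed by -0.17 ± 0.11 (SE) with an adjusted p of 0.206. Ndufa4l2, a paralog of Ndufa4 known to respond to low oxygen, had a mean level of 3.06 ± 0.052 (SD, n = 4) in control and 3.06 ± 0.22 in DKO hearts. Its paralog Ndufa4 fell by 0.40. The product of Ndufa4 is now assigned to complex IV, and with both counted there complex I had 35 of 36 members called lower and complex IV 11 of 18.

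**Figure D3:**
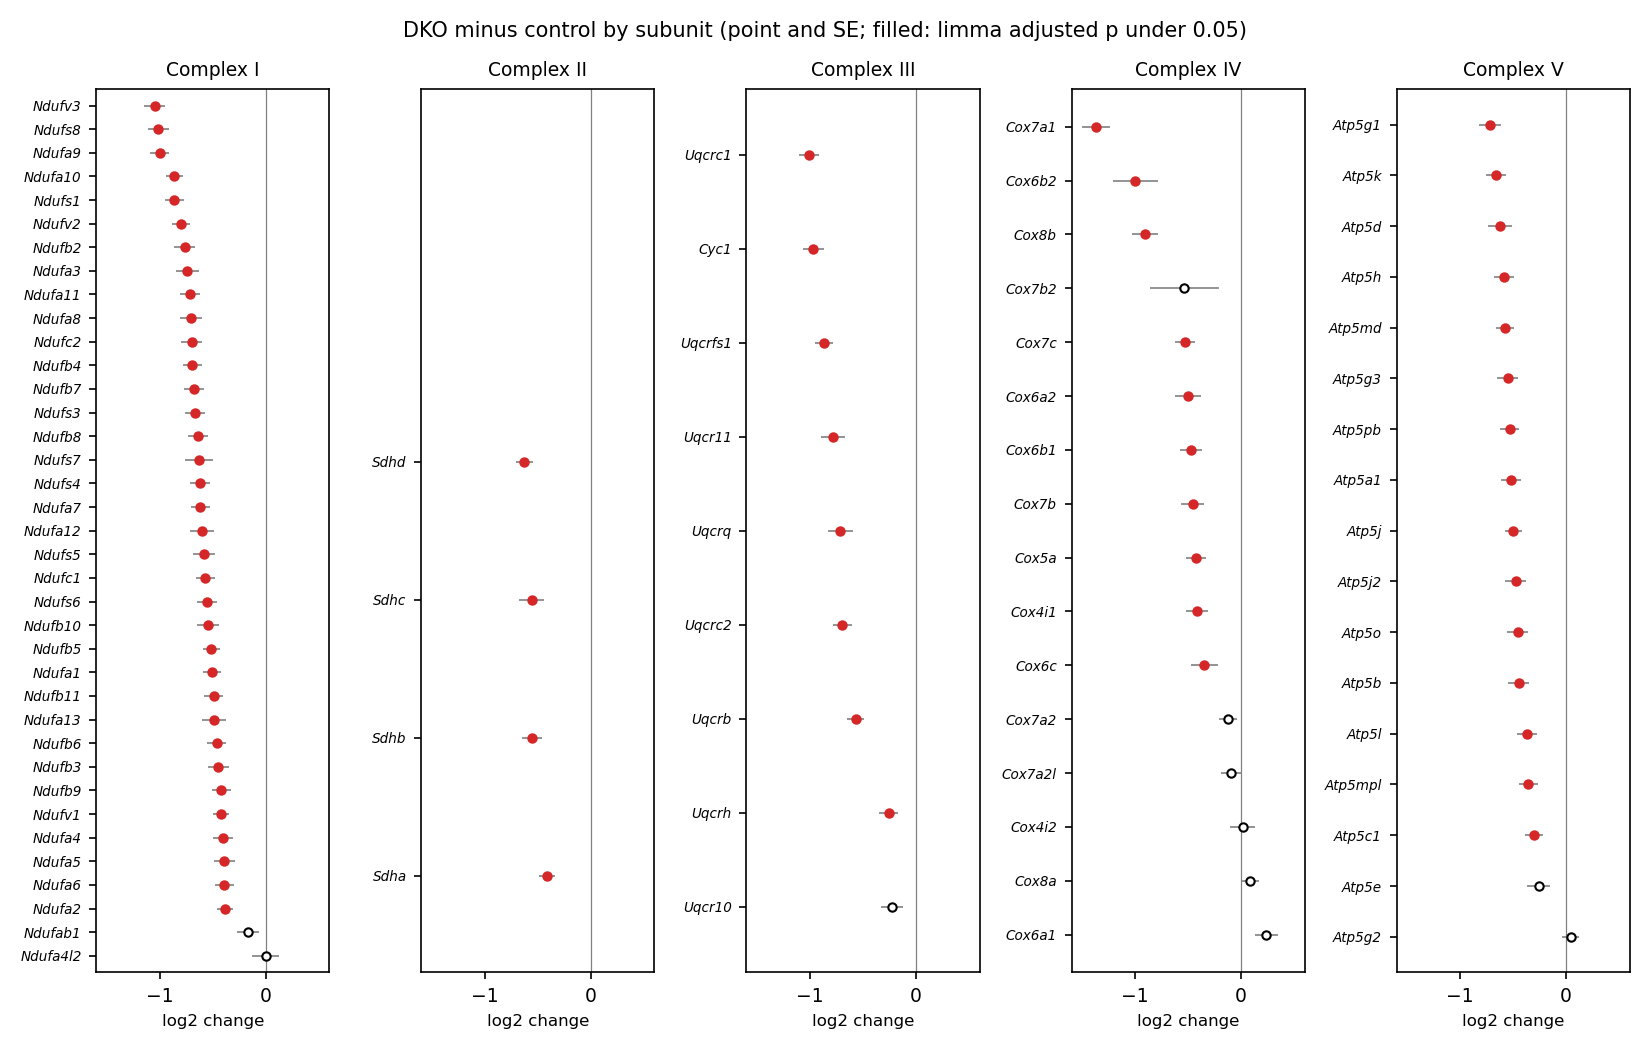
Log2 change in DKO minus control hearts (horizontal axis) of 83 subunits, in a panel per complex, with the limma SE as a bar and filled points for genes called lower. Only complex IV has several points at or above zero, with Cox6a1 highest at 0.24, and Cox7a1 in the same complex is the lowest of all at -1.37.

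All 4 subunits of complex II, succinate dehydrogenase, were called lower. Sdhd, a membrane anchor, had levels of 6.74, 6.75, 6.65 and 6.73 in control and 6.16, 6.02, 6.09 and 6.09 in DKO hearts, a fall of 0.63 (SE 0.080, limma adjusted p = 2.39e-05). Sdhc, the other anchor, fell by 0.56 and Sdhb, the iron-sulfur subunit, by 0.55. By its brightest probe Sdha, the flavoprotein that binds succinate, fell by 0.42, from 6.22, 6.25, 6.15 and 6.22 in control to 5.90, 5.74, 5.70 and 5.84 in DKO hearts. A further probe changed by -0.62 for Sdha and by -0.71 for Sdhb, so that the order of the 4 falls depends on the probe. All 4 DKO hearts lay below all 4 control hearts for each of the 4 genes, as for 20.6% of all genes tested.

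Complex III had the lowest median of the 5 complexes, -0.72, with 8 of 9 members called lower. Uqcrc1, a core protein of the matrix side, had levels of 7.76, 7.68, 7.59 and 7.72 in control, 7.29, 7.64, 7.72 and 7.62 in AKT1 KO, 7.64, 7.46, 7.49 and 7.55 in AKT2 KO and 6.79, 6.68, 6.51 and 6.75 in DKO hearts. It fell by 1.01 (SE 0.094, limma adjusted p = 1.48e-06), a 2.01-fold lower signal. Both nuclear-encoded subunits with redox centres fell as well: Cyc1, cytochrome c1, from 7.87, 7.75, 7.67 and 7.79 to 6.88, 6.87, 6.74 and 6.72, by 0.97 (SE 0.10), and Uqcrfs1, the Rieske iron-sulfur protein, by 0.87. The other core protein, Uqcrc2, fell by 0.69, and the small subunits Uqcr11 and Uqcrb by 0.78 and 0.57.

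The hinge protein gene Uqcrh stood near the call threshold. Its levels were 8.96, 8.76, 8.73 and 8.84 in control and 8.57, 8.46, 8.51 and 8.71 in DKO hearts, a change of -0.26 (SE 0.089, limma adjusted p = 0.0292). With quantile normalization the change was 0.05 and with the authors' deposited values 0.06, so that neither its direction nor its call held across scalings. The call was also lost without control replicate 1 or 4 or DKO replicate 1 or 2 (limma adjusted p = 0.0502 to 0.0927). Uqcr10 changed by -0.23 ± 0.10 (SE) and was not called (but was without AKT1 KO replicate 1, adjusted p = 0.0401), though no DKO heart reached a control heart. In each DKO heart the median of complex III, -0.73, -0.83, -0.84 and -0.61 for replicates 1 to 4, was below that of complex IV, -0.41, -0.52, -0.46 and -0.31. This order of the complexes was not tested.

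Complex IV, cytochrome c oxidase, was the most divided: 10 of 16 members were called lower, 6 were not called, and the changes ran from -1.37 to 0.24. Its median of -0.44 was -0.28 with either quantile normalization or the authors' deposited values, under which 8 members were called lower and 1, Cox6a1, higher. Cox5a, a subunit without tissue isoforms, fell by 0.43, Cox7c by 0.53, Cox6b1 by 0.47 and Cox4i1 by 0.42. The calls of Cox5a and Cox4i1 were lost with those 2 scalings. Among the 6 uncalled members was Cox7b2, named here after its values were seen, a dim probe with a change of -0.54 ± 0.32 (SE).

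For subunits VIIa, VIII and VIa the split ran between tissue isoforms. Cox7a1, the heart and skeletal muscle form of subunit VIIa, had levels of 9.41, 9.13, 9.22 and 9.36 in control and 8.10, 7.99, 7.53 and 8.04 in DKO hearts. It fell by 1.37 (SE 0.14, limma adjusted p = 2.38e-06), the largest change of any member, to a 2.58-fold lower signal. Its counterpart of other tissues, Cox7a2, had levels of 7.72, 7.66, 7.54 and 7.64 and 7.502, 7.46, 7.45 and 7.67, which overlapped, and changed by -0.12 ± 0.085 (SE, adjusted p = 0.261). Cox7a2l, a relative of these isoforms, changed by -0.098 and was not called.

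Subunit VIII showed the same division. Cox8b, its heart and muscle form, had levels of 8.93, 8.68, 8.66 and 8.74 in control and 7.97, 7.77, 7.59 and 8.04 in DKO hearts and fell by 0.91 (SE 0.12, limma adjusted p = 3.67e-05). Cox8a, the widely expressed form, had levels of 7.04, 7.05, 6.998 and 7.07 and 7.08, 6.97, 7.21 and 7.26, a change of 0.088 ± 0.082 that was not called. For subunit VIa, the muscle form Cox6a2 went from 9.61, 9.40, 9.38 and 9.54 to 8.99, 8.86, 8.90 and 9.18, a fall of 0.50 (SE 0.12), while Cox6a1, the form of other tissues, had 7.45, 7.40, 7.35 and 7.40 in control and 7.49, 7.43, 7.96 and 7.68 in DKO hearts. Cox6a1 was not called against control (0.24, SE 0.11, adjusted p = 0.0854), but was the only member called higher in DKO than in AKT1 KO hearts, by 0.34, and than in AKT2 KO hearts, also by 0.34. With quantile normalization and the authors' deposited values it was called higher against control too, at 0.27 and 0.28. DKO replicate 3 had the highest level, and without it the change from control was 0.13 (limma adjusted p = 0.22). The call against AKT1 KO was lost with array quality weights (0.16), without AKT1 KO replicate 1 (0.27), within slide 1 (0.053) and with the 2 groups fitted alone, and that against AKT2 KO within slide 1 (0.17), within slide 2 (0.504), without AKT2 KO replicate 2 or 3, with no filter on dim probes and with the 2 groups fitted alone.

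**Figure D4:**
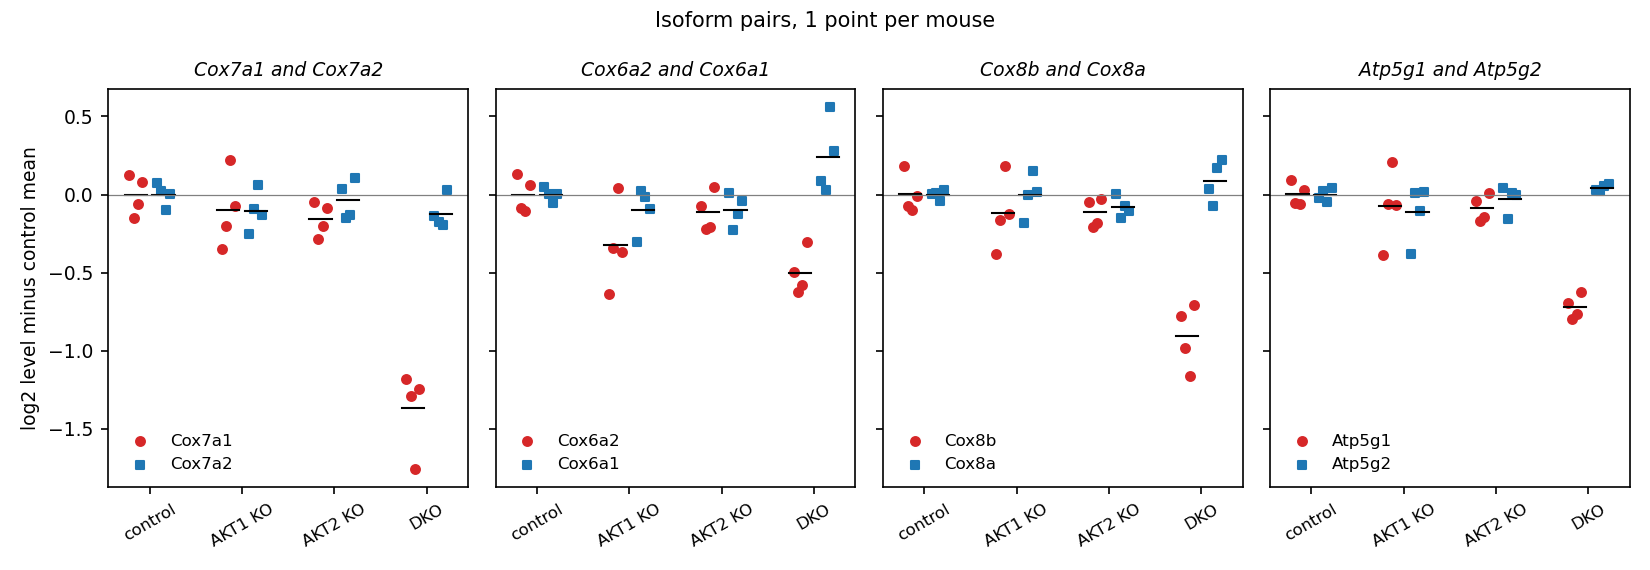
Log2 level minus the control mean (vertical axis) of 4 pairs of isoforms in the 4 groups, with 1 point per mouse and a bar at the group mean. The red points (Cox7a1, Cox6a2, Cox8b and Atp5g1) drop in DKO hearts while the blue points (Cox7a2, Cox6a1, Cox8a and Atp5g2) stay near or above their control level.

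The difference between paired isoforms within each heart does not depend on the scaling constant of the array. Cox7a1 minus Cox7a2 changed by -1.25 ± 0.13 (SE) between control and DKO hearts, Cox8b minus Cox8a by -0.997 ± 0.13 (SE), and Cox6a2 minus Cox6a1 by -0.74 ± 0.14 (SE). Within every one of these pairs the 4 DKO hearts lay below the 4 control hearts (exact permutation test, two-sided, p = 0.0286, the smallest that 4 against 4 can give). Over the 24 such tests made, 8 pairs in 3 comparisons, the Benjamini-Hochberg adjusted p was 0.098, which missed 0.05. The pairs were chosen with earlier results of these data known. Neither p-value allows for that choice, so these tests are no independent check of the division. Cox4i2 is the form of subunit IV known from lung and low oxygen, and Cox4i1 minus Cox4i2 changed by -0.43 ± 0.078 (SE), but by -0.12 with quantile normalization (exact permutation p = 0.4). Cox6b2, the testis form of subunit VIb, was dim in these hearts and fell by 0.998, so that this pair ran the other way, with a change of 0.53 for Cox6b1 minus Cox6b2 (exact permutation p = 0.0571). In AKT1 KO and AKT2 KO hearts the 8 pair differences had exact permutation p-values of 0.0857 to 0.971.

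Complex V had 15 of 17 members called lower and a median change of -0.50, or -0.37 with quantile normalization. Several subunits of the catalytic head and its central stalk were called lower. Atp5a1, the alpha subunit, fell from 9.24, 9.06, 9.05 and 9.16 to 8.61, 8.47, 8.65 and 8.71, by 0.52 (SE 0.095, limma adjusted p = 0.000497). Atp5b, the beta subunit with the catalytic sites, fell by 0.45, and Atp5c1, the gamma subunit of the central stalk, by 0.30. Of these 3, Atp5c1 was not called with quantile normalization or the authors' deposited values, and Atp5b not with the latter. Atp5d, the delta subunit of the central stalk, named here after its values were seen, fell by 0.62 (limma adjusted p = 0.000506). Atp5pb and Atp5h, of the peripheral stalk, fell by 0.53 and 0.58, and Atp5k and Atp5md, small membrane subunits, by 0.66 and 0.58. Atp5e, the epsilon subunit, had levels of 8.35, 8.19, 8.14 and 8.35 in control and 8.02, 7.85, 7.91 and 8.22 in DKO hearts and was not called (-0.26, SE 0.11, adjusted p = 0.0603), but was called without AKT1 KO replicate 1 or DKO replicate 4 (limma adjusted p = 0.04 and 0.0221).

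The rotating c ring of ATP synthase is encoded by a trio of genes whose products differ in the import sequence and are the same once mature. Atp5g1 had levels of 9.13, 8.98, 8.97 and 9.07 in control and 8.35, 8.24, 8.27 and 8.41 in DKO hearts and fell by 0.72 (SE 0.10, limma adjusted p = 6.27e-05), and Atp5g3 fell by 0.55. Atp5g2 had levels of 7.64, 7.69, 7.61 and 7.71 and 7.69, 7.68, 7.72 and 7.73, a change of 0.042 ± 0.084 that was not called. Within hearts, Atp5g1 minus Atp5g2 changed by -0.76 ± 0.052 (SE) and Atp5g3 minus Atp5g2 by -0.60 ± 0.069 (SE), again with no overlap of DKO and control hearts. These pairs too were chosen with earlier results of these data known. Atpif1, which encodes the inhibitory factor of ATP synthase and is no member by the symbol rule, had levels of 7.20, 7.14, 7.11 and 7.27 in control and 7.48, 7.51, 7.32 and 7.55 in DKO hearts. Its levels were 7.21, 7.29, 7.42 and 7.38 in AKT1 KO hearts and 7.15, 7.24, 7.265 and 7.07 in AKT2 KO hearts. From control to DKO hearts Atpif1 rose by 0.29 (limma adjusted p = 0.0063), and by 0.27 to 0.31 under the other scalings. This was opposite to the 15 complex V members called lower.

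The promoter windows of 6 members are printed because they set genes that fell beside genes that were not called, and windows that hold a searched motif beside windows that do not. They are RefSeq sequences of build GRCm38.p6, from 250 bases before to 50 bases after the annotated start, read along the gene's strand, and were chosen after the values were seen. Capitals mark matches, on either strand, to 4 motifs: CGCATGCG for the core of the NRF1 site, TNAAGGTCA for estrogen-related receptors, AAGATGGCG for YY1 and CCGGAAGT for GABP. No motif overlaps another in these windows.
Cox7a1 (fell, no match), chr7:30183921-30184220, plus strand: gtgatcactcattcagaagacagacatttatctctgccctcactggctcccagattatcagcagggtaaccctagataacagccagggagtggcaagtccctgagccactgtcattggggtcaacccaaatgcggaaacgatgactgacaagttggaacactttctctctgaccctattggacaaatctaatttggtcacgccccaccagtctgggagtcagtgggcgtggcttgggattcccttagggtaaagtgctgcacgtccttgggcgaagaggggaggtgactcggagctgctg
Cox8b (fell, no match), chr7:140900397-140900696, minus strand: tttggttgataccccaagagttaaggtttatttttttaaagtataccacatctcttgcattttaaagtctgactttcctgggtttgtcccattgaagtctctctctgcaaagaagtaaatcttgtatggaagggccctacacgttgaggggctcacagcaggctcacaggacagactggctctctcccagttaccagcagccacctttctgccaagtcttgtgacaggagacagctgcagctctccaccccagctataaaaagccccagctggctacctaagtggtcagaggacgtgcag
Uqcrc1 (fell, NRF1 core), chr9:108936398-108936697, plus strand: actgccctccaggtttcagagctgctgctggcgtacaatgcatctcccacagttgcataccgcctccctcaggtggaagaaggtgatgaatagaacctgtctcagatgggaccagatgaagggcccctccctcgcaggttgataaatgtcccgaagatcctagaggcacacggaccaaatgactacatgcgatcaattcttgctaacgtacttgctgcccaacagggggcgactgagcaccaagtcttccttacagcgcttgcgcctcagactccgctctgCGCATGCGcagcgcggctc
Ndufa9 (fell, YY1), chr6:126849095-126849394, minus strand: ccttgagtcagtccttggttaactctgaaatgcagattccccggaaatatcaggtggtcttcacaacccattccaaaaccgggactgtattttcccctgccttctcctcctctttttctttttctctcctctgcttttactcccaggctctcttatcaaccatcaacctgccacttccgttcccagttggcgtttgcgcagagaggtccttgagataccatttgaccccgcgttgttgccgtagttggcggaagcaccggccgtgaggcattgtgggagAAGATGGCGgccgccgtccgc
Cox8a (not called, GABP at 2 places), chr19:7217567-7217866, minus strand: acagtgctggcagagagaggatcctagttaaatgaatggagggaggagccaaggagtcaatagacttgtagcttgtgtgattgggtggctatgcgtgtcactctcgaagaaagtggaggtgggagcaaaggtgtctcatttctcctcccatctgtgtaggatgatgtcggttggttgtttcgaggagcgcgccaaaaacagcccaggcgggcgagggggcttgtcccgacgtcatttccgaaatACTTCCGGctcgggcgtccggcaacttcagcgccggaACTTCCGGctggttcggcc
Atp5g2 (not called, NRF1 core), chr15:102670998-102671297, minus strand: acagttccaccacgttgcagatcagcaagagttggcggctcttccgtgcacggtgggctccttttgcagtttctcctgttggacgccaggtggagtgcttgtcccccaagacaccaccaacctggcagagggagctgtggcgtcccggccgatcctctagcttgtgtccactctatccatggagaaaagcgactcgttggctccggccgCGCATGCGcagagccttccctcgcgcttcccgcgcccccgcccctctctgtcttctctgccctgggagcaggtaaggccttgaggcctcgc

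Both genes that fell and genes that were not called thus held matches. Of the 68 members with a window in the table, 9 (13.2%) held the NRF1 core, against 2.07% of the 27025 genes with a window. The YY1 motif was in 7 members (10.3%, against 1.64%), the GABP motif in 5 (7.35%, against 4.31%) and the motif of estrogen-related receptors in 3 (4.41%, against 1.43%). Base composition was not matched in these shares. The 22 members with any of the 4 motifs had a median change of -0.60 in DKO hearts, with 19 called lower, and the 46 with none -0.53, with 40 called lower. The printed windows of Cox7a1 and Cox8b, the muscle isoforms with the largest falls, held none of these letters.

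In hearts that lacked only AKT1 or only AKT2, no subunit was called. Against control, limma called 0 of 84 members in AKT1 KO hearts (2 at an unadjusted p under 0.05) and 0 in AKT2 KO hearts (1 at an unadjusted p under 0.05), where 0.794% and 0.131% of all genes tested were called. The lists of 2 and 1 were Ndufa8 and Cox6a2 in AKT1 KO and Uqcrb in AKT2 KO hearts, named here because of those p-values. The members lay slightly low nonetheless, at a median of -0.10 in AKT1 KO and -0.11 in AKT2 KO hearts, against -0.03 and -0.02 over all genes. These medians were -0.03 and -0.04 with quantile normalization, and without AKT1 KO replicate 1 the first was -0.02. All AKT1 KO hearts lay below all control hearts for 2 of 84 members (6.29% of all genes tested) and all AKT2 KO hearts for 1 (5.11%). AKT2 KO and AKT1 KO hearts did not differ in any member by the limma test (0 called, 1 at an unadjusted p under 0.05, which was Cox6b2, with 0.896% of all genes called).

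3 members lie near a targeted gene. Atp5mpl, named here for its place, lies 0.687 Mb from Akt1 on chromosome 12 and was not called in AKT1 KO hearts. Cox7a1 lies 2.54 Mb from Akt2 on chromosome 7, at positions 30184171 to 30186030 of GRCm38.p6, and Cox6b1 at 2.98 Mb, at 30616971 to 30626114. In AKT2 KO hearts Cox7a1 had levels of 9.23, 8.996, 9.08 and 9.20, a change of -0.15 ± 0.14 (SE) from control, and it was not called. In AKT1 KO hearts, whose Akt2 gene is not floxed, its levels were 8.94, 9.08, 9.504 and 9.21. Against AKT2 KO hearts, which carry the same floxed Akt2, Cox7a1 was 1.21 lower in DKO hearts on the log2 scale (limma adjusted p = 8.81e-06).

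Subunit transcripts were lower in DKO hearts than in either single knockout as well. Against AKT1 KO, 65 members were called lower and 1 higher (20.3% and 26.7% of all genes tested), with a median of -0.44. Against AKT2 KO, 68 were called lower and 1 higher (18.6% and 23.5%), with a median of -0.43. All 3 comparisons share the DKO arrays. Within slide 1 alone 69 and 56 members were called in the comparisons with AKT1 KO and AKT2 KO hearts, and within slide 2 alone 13 and 17. By complex, 34 of 38, 4 of 4, 7 of 9, 8 of 16 and 12 of 17 members of complexes I to V were called lower against AKT1 KO, and 36, 4, 7, 8 and 13 against AKT2 KO. Cox6a2, called lower against control and against AKT2 KO, was not called against AKT1 KO, with a change of -0.18 ± 0.12 (SE). Its AKT1 KO levels were 8.85, 9.14, 9.53 and 9.12, of which 3 lay below all 4 controls.

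The change in DKO hearts was also compared with the sum of both single changes, by taking the AKT1 KO and AKT2 KO changes from control away from the DKO change. Of the 84 members, 34 were called lower than that sum and 0 higher, where 10.1% of all genes tested were called lower and 15.9% higher. The 34 were 20 members of complex I, 1 of complex II, 5 of complex III, 4 of complex IV and 4 of complex V, and the median departure was -0.35. Cox7a1 had the largest, -1.11 (SE 0.19, limma adjusted p = 0.000912), followed by Cox6b2 at -0.97 and Ndufs8 at -0.83. Cox6a2, whose AKT1 KO mean was already below control, had a departure of -0.064 (adjusted p = 0.824). The count rested on the arrays and the scaling. It was 52 without AKT1 KO replicate 1, 55 with quantile normalization and 24 without control replicate 2. Within slide 1 alone it was 19 and within slide 2 alone 0, where 2 mice per group remain. The shares of all genes called under these settings are not given here, so these counts cannot be set against them.

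Genes that build or serve the complexes were given by lists. In DKO against control hearts, 21.2% of all genes tested were called lower and 24.4% higher. Of 15 complex I assembly factors 12 were called lower in DKO than in control hearts and 0 higher, with Foxred1, Tmem126b, Ndufaf4 and Ndufaf6 at -0.99, -0.88, -0.92 and -0.71. All 4 complex II factors (Sdhaf1 to Sdhaf4), 3 of 5 complex III factors and all 5 complex V factors were called lower, among them Uqcc1 at -0.88 and Atpaf1 at -0.81. Of the complex IV factors, 12 of 22 were called lower, among them Cmc2 at -1.03 and Cox15, which makes heme a, at -0.60. Coa5 was the 1 called higher, at 0.77 and at 0.74 to 0.76 under the other scalings. Without DKO replicate 3, 2 of these factors were called higher: Coa5 and Cox19, the latter at 0.397 (limma adjusted p = 0.00215).

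Of 9 tested genes on a list of electron carriers, transporters and 2 proteins that assist complex IV and supercomplexes (Higd1a and Higd2a), 8 were called lower. The share called lower over all genes tested was 21.2%. Cycs, the cytochrome c that links complexes III and IV, fell by 0.67, and Etfdh, which passes electrons of fatty acid oxidation to ubiquinone, fell by 1.32. Etfa and Higd2a fell by 0.67 and 0.86. The member that was not called, the ATP/ADP carrier Slc25a5, is known as the form of proliferating cells and changed by 0.13, while Slc25a4, the heart and muscle form, was called lower at -0.37. The call of Slc25a4 was lost without control replicate 1 or 4 or DKO replicate 1 or 2 (limma adjusted p = 0.0613 to 0.07). Without DKO replicate 3 Slc25a5 changed by 0.032. Both carriers were picked out after seeing their values.

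Of 23 genes on a list of regulators of mitochondrial genes, 13 were called lower in DKO hearts and 1 higher. Over all genes tested, 21.2% were called lower and 24.4% higher. Some on the list, Tfam and Polrmt among them, serve mitochondrial DNA and not the nuclear subunit genes. Tfam, which binds mitochondrial DNA, had levels of 1.98, 1.94, 1.91 and 1.90 in control and 1.45, 1.44, 1.28 and 1.30 in DKO hearts and fell by 0.56 (limma adjusted p = 9.46e-05). Polrmt, the mitochondrial RNA polymerase, fell by 0.72 and Ppargc1b, a PGC-1 coactivator, by 0.92. Nrf1, the factor whose core motif was searched above, moved the other way: -0.38, -0.33, -0.48 and -0.48 in control and -0.055, 0.053, 0.33 and -0.041 in DKO hearts, a rise of 0.49 (limma adjusted p = 0.000245) that was 0.43 to 0.49 under the other scalings. Perm1, Esrra and Ppargc1a are named after their values were seen. Perm1 had levels of 5.01, 4.91, 4.88 and 4.98 in control and 4.16, 4.15, 1.81 and 4.21 in DKO hearts, with DKO replicate 3 far below the other 3, and fell by 1.36, or by 0.77 without that array (called in both). Esrra fell by 0.61, or by 0.445 without DKO replicate 3 (called in both). Ppargc1a had levels of 3.70 to 3.91 in control and 2.79 to 3.8 in DKO hearts, with DKO replicate 3 lowest, and the groups overlapped. It was not called (adjusted p = 0.0955), with a change of -0.37 that was -0.15 without DKO replicate 3 and -0.49 (called) without DKO replicate 4. Without DKO replicate 3, 13 of the 23 were called lower and 2 higher. None of the 23 was called in AKT1 KO or AKT2 KO hearts (1 in each at an unadjusted p under 0.05, which was Ppara in both). In these hearts 0.794% and 0.131% of all genes tested were called, so a count of 0 is near that share.

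**Figure D5:**
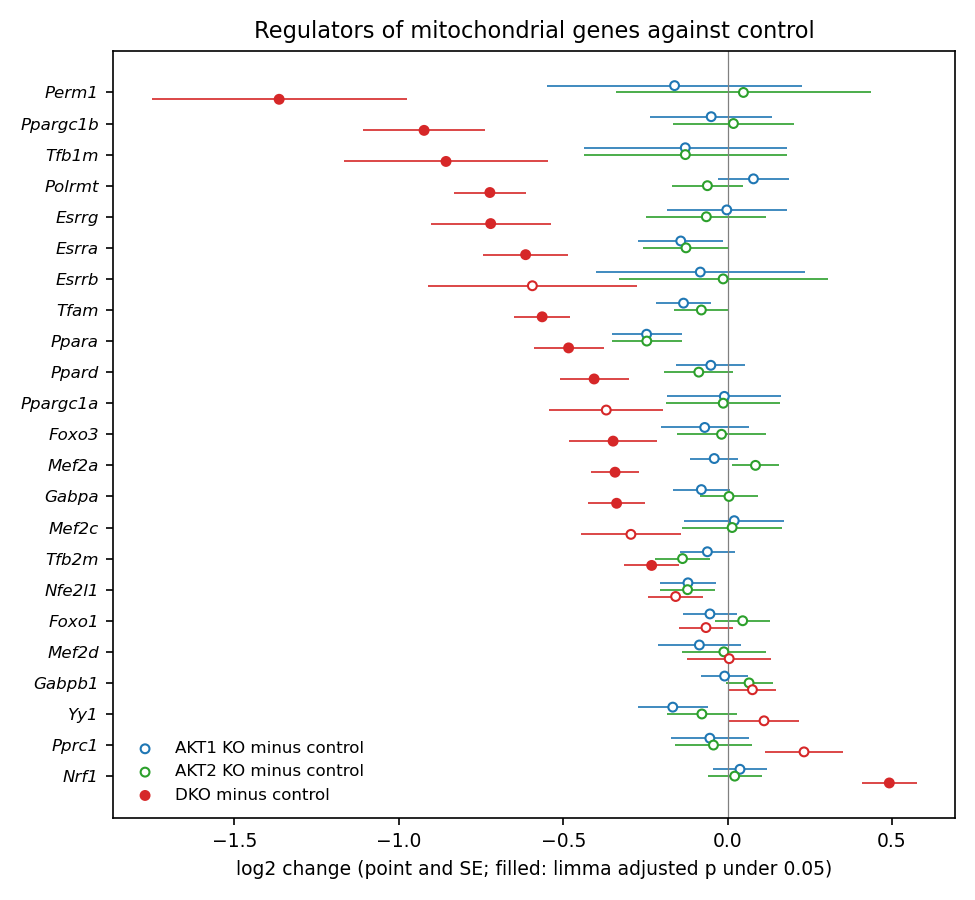
Log2 change from control (horizontal axis, with limma SE) of 23 regulators of mitochondrial genes in AKT1 KO, AKT2 KO and DKO hearts, filled where called by limma. In DKO hearts 13 regulators are called lower and Nrf1 higher, while no point of AKT1 KO or AKT2 KO hearts is filled. Over all genes tested, 0.794% were called in AKT1 KO and 0.131% in AKT2 KO hearts.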

How the data were processed

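Total RNA of 16 heart apices was labelled with Cy3 and hybridised to Agilent arrays. The deposited scanner files hold spot intensity, extracted with Agilent Feature Extraction 12.0.3.1 per the file headers. The authors' deposited table holds log2 values, centred per probe as their values show, by a method not given in the sources used here, and served as an alternative. From the processed signal, log2 was taken and the 75th percentile of each array subtracted. Probes with outlier flags, or not well above background on all 4 arrays of any group, were left out, and the brightest probe stood for a gene. Symbols came from RefSeq accessions. limma 3.58.1 (R 4.3.3) fitted 1 mean per group on all 16 arrays (12 residual degrees of freedom) for 7 comparisons, with Benjamini-Hochberg adjustment over 13725 genes, and was tested on simulated data. The number of arrays limits the precision.

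Members, lists and isoform pairs were chosen with earlier results of these data known. Members named are, per complex, those with the smallest adjusted p, the extremes of DKO minus control, isoform pairs, core subunits and those called for additivity (61 of 84). The values of 1 member of complex I are not reported here, though it is counted in the totals and medians. Up to 4 called genes of smallest adjusted p were named per other list. Isoform differences were compared by exact permutation of 4 against 4 mice. Alternatives changed the background correction, scaling, filter, probe, weights, prior, blocks, slides and arrays used.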

Additional observations from a re-analysis of the deposited data

Results flagged for a closer look

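Values of 1 mouse stood apart from the other 3 of its group by Dixon's criterion in 3 of 96 groups of 4 checked, and chance alone does so in about 1 of 20. The median of complex II lay at -0.312 in AKT1 KO replicate 1 and at -0.245 in AKT2 KO replicate 2, relative to the control mean. The level of Cyc1 was 7.51 in AKT2 KO replicate 2, below the other 3 mice of that group.

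For 34 members the change in DKO hearts differed from the sum of the changes in both single knockouts (limma, adjusted p under 0.05). The values of 33 follow. In complex I the lower departures included Ndufs8 at -0.828, Ndufa9 at -0.788, Ndufs1 at -0.775, Ndufv3 at -0.761, Ndufa10 at -0.652 and Ndufa12 at -0.647. Next came Ndufv2 at -0.578, Ndufs4 at -0.557, Ndufa3 at -0.555, Ndufb7 at -0.545, Ndufs3 at -0.509, Ndufb2 at -0.474 and Ndufa11 at -0.473. Smaller departures in complex I included Ndufb4 at -0.454, Ndufa7 at -0.433, Ndufb8 at -0.426, Ndufb9 at -0.373, Ndufs6 at -0.372 and Ndufc1 at -0.36. In complexes II and III the values were Sdhd at -0.406, Uqcrc1 at -0.73, Cyc1 at -0.711, Uqcrfs1 at -0.644, Uqcrc2 at -0.574 and Uqcr11 at -0.488. In complex IV they were Cox7a1 at -1.11, Cox6b2 at -0.97, Cox8b at -0.673 and Cox7c at -0.422, and in complex V Atp5g1 at -0.557, Atp5k at -0.445, Atp5pb at -0.394 and Atp5md at -0.388.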

How the results depend on the processing

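Fewer subunits were called for DKO hearts within slide 2 alone, with 2 mice per group: 26 against control, 13 against AKT1 KO, 17 against AKT2 KO and 0 for the departure from additivity. That departure was the least stable count: 55 with quantile normalization, 59 with the authors' deposited values, 22 with no filter on dim probes, 58 with array quality weights, 19 within slide 1, 24 to 52 when leaving out each array, and 56 without AKT1 KO replicate 1 and DKO replicate 3, a setting chosen after seeing the data. With array quality weights 1 member was called in AKT1 KO hearts. The shares of all genes called under the altered settings of this paragraph are not given, so its counts cannot be set against them. Uqcrh reversed, to 0.0506 (quantile) and 0.059 (authors' values) against control and to 0.156 (quantile) against AKT1 KO. Cox4i1 minus Cox4i2 went to -0.124 (quantile) and -0.109 (authors' values), and Ndufa4 minus Ndufa4l2 to -0.66 within slide 1 and -0.148 within slide 2. The cause was not tested, apart from the fewer arrays within a slide. The counts called lower or higher in DKO hearts were otherwise 68 to 75 against control (71 to 75 when leaving out each array), 53 to 73 against AKT1 KO and 63 to 73 against AKT2 KO. The median over members ran from -0.6 to -0.505, from -0.564 to -0.316 and from -0.467 to -0.396 in these comparisons, slides included. It ran from -0.17 to -0.0189 in AKT1 KO and from -0.168 to -0.0294 in AKT2 KO hearts. The complex IV median went from -0.442 to -0.275 (authors' values) against control and from -0.306 to -0.182 (quantile) against AKT1 KO, and the complex II departure from additivity from -0.331 to -0.551 (authors' values). With the replicate number as a block, 73 members were called in DKO hearts and 30 for the departure from additivity. Arrays of the same slide and row correlated at -0.0367 to 0.392 (median 0.176, over 0.1 in 19 of 24 pairs), and a block of slide and row gave 73 members called against control and 35 for the departure. Same-numbered arrays correlated at -0.35 to 0.392, and 9 of 16 correlated best with their own number, so the numbers were not taken to pair the mice.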
